A study of Mus musculus with 15 samples.

Results

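Mir-21 and mir-29, miRNA families tied to cardiac fibrosis, were examined in LV tissue of wt, AGAT-/- and AGAT-/-hArg mice. All entries named mir-21, mir-21a, mir-21b, mir-21c, mir-29a, mir-29b or mir-29c were taken with both arms, which gave 12 of the 1836 miRNA entries in the deposited counts, from 6 of 918 precursors. Of the 12, 6 belong to mir-21 and 6 to mir-29, and no entry of the deposited counts was named mir-29c. MiRNA was sequenced from 15 mice, 5 in each of 3 groups, with a library for each mouse. AGAT (arginine:glycine amidinotransferase) forms homoarginine and the precursor of creatine. Wt mice carried the intact gene and AGAT-/- mice lacked it, and neither group was supplemented. AGAT-/-hArg mice lacked the gene as well and received homoarginine through osmotic mini pumps over 4 weeks. All mice were on a C57BL/6J background and were littermates bred from heterozygous parents. By their labels, wt and AGAT-/- samples were sequenced on lane 8, but AGAT-/-hArg samples on lane 2. Effects of lane and of homoarginine therefore cannot be told apart. Total counts ranged from 415608 to 486204 reads in wt (median 442725), from 365634 to 557398 in AGAT-/- (median 454326) and from 389359 to 570492 in AGAT-/-hArg mice (median 464886).

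A miRNA guides the silencing complex to mRNAs that pair with its seed, the bases near its 5′ end. Mir-21 is raised in fibroblasts of the failing heart and is described as pro-fibrotic, while mir-29 is abundant in cardiac fibroblasts, targets collagen mRNAs and is described as anti-fibrotic. For mir-21 the 5p arm, and for mir-29 the 3p arm, is known as the main guide.

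The mature sequences are shown because some members differ by few bases and some share a seed. They were taken from RefSeq (build GRCm38.p6), which held 10 of the 12 arms, and capitals mark the seed (bases 2 to 8). The deposited counts give names without sequences, so the arm behind each count is the one named there and could not be checked against reads.
mir-21a-5p: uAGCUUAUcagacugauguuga
mir-21c-5p: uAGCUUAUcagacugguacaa
mir-21b-5p: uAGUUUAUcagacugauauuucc
mir-21a-3p: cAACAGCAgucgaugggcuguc
mir-29a-3p: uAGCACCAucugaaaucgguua
mir-29b-1-3p: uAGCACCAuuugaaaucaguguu
mir-29b-1-5p: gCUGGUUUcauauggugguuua
mir-29b-2-5p: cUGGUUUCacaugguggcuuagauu

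Counted from 1 at the 5′ end, mir-21a-5p and mir-21b-5p differ by C4U, G18A, G21U and A22C, and the first of these lies in the seed. Mir-21a-5p and mir-21c-5p share the seed and differ by A16G, G18A, U19C, U20A and G21A. Mir-29a-3p shares its seed with mir-29b-3p and differs from it by C10U, G18A, U21G and A22U. The 3p arms of mir-29b-1 and mir-29b-2 are identical, so reads of these arms cannot be assigned to either precursor. Compared base by base from the 5′ end, mir-29b-1-5p and mir-29b-2-5p differ at 15 of 22 positions, and their seeds differ. How the authors counted reads that match several entries is not given in the sources used here.

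The precursors lie on 5 chromosomes (GRCm38). Mir-21a is encoded on the minus strand of chromosome 11 (86584067 to 86584158), within an exon and UTR of Vmp1 on the same strand. Mir-21b lies in an intron of Egfem1 on chromosome 3, from 29636744 to 29636851, and mir-21c on chromosome 8, from 128278148 to 128278225, outside annotated genes. Mir-29a (31062660 to 31062747) and mir-29b-1 (31063023 to 31063093) are neighbours on the minus strand of chromosome 6, with 275 bases between their hairpins. Mir-29a overlaps no other gene, and mir-29b-1 partly overlaps an exon of the lincRNA Gm27019. Mir-29b-2 lies on chromosome 1 from 195037040 to 195037120, within an exon of A330023F24Rik and opposite a UTR exon of Cd46.

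The members differed widely in level. Mir-21a-3p held 3670 reads over the 15 libraries, rank 64 of the 1164 entries with reads. Mir-29a-3p followed with 3205 reads (rank 68) and mir-21a-5p with 1242 (rank 100). Mir-29b-1-5p with 70 reads (rank 307) and mir-29b-2-5p with 39 (rank 375) were near the limit of detection. These 5 had enough reads to be tested (a sum above 10 in the 10 libraries compared). Mir-21b-5p and mir-21c-5p had 1 read each, in AGAT-/- mouse 6 and wt mouse 1. Mir-21b-3p, mir-21c-3p, mir-29a-5p, mir-29b-1-3p and mir-29b-2-3p were listed at 0, as were 672 of all entries, among them mir-1a-1-3p, mir-133a-1-3p and mir-22-3p. Of 101 precursors with at least 1000 reads on an arm, 45 (44.6%) had the other arm at 0 in every library, and no level is given for such arms.

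Mir-21a-3p stood at 628, 583, 580, 608 and 626 CPM in wt mice 1 to 5 (CPM, which puts libraries of unequal size on one scale, after TMM normalization). In AGAT-/- mice 6 to 10 it stood at 441, 307, 527, 619 and 658 CPM, and in AGAT-/-hArg mice 11 to 15 at 464, 568, 442, 598 and 477 CPM. The wt mice lay close together, AGAT-/- mouse 10 lay above all wt mice and mouse 7 far below them, and the groups overlapped. Mir-21a-5p stood at 228, 218, 214, 200.2 and 219 CPM in wt mice. In AGAT-/- mice it stood at 186, 135, 172, 167 and 208 CPM, and in AGAT-/-hArg mice at 158, 184, 148, 172 and 138 CPM. All 5 AGAT-/-hArg mice and 4 of 5 AGAT-/- mice were below every wt mouse. Mir-29a-3p stood at 596, 476, 492, 499 and 473 CPM in wt mice. In AGAT-/- mice it stood at 407, 516, 300.5, 404 and 391.5 CPM, and in AGAT-/-hArg mice at 562, 419, 541, 467 and 459 CPM. Here 4 of 5 AGAT-/- mice were below every wt mouse, mouse 7 being the exception, while 3 of 5 AGAT-/-hArg mice were.

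**Figure D1:**
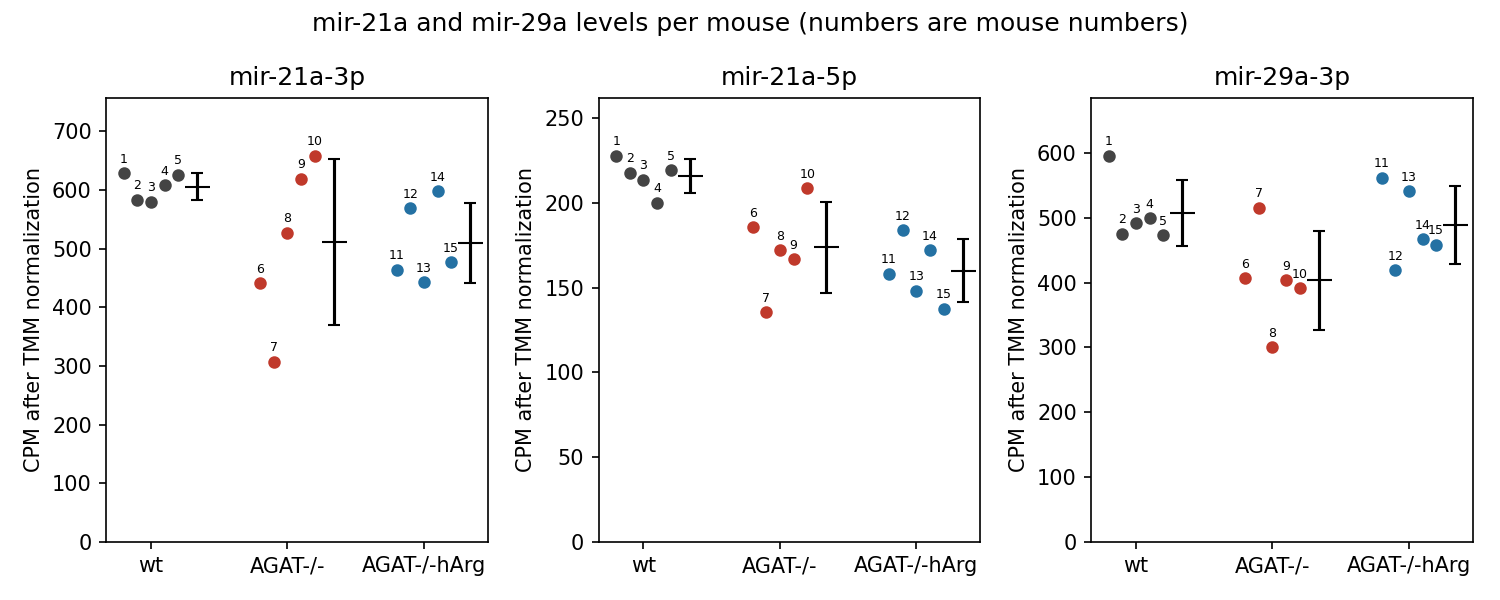
CPM of mir-21a-3p, mir-21a-5p and mir-29a-3p in each mouse (points, with mouse numbers), with mean ± SD per group (bars, n = 5). Mir-21a-5p in the 5 AGAT-/-hArg mice lies below all wt mice, and mir-21a-3p spreads from 307 to 658 CPM in AGAT-/- mice.

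Reads of mir-29b-1-5p ranged from 2 to 5 in wt, from 1 to 9 in AGAT-/- and from 4 to 9 in AGAT-/-hArg libraries. For mir-29b-2-5p the ranges were 0 to 7, 0 to 5 and 1 to 4 reads. In these libraries 3 reads correspond to between 4.93 and 8.2 CPM, a limit that covers counting error only, so both stood near it and their differences have wide intervals.

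Levels of mir-21a and mir-29a were lower on average in AGAT-/- than in wt mice, and none of the differences passed an FDR of 0.05. Mir-21a-5p averaged 216 ± 10.1 CPM in wt against 174 ± 26.8 CPM in AGAT-/- animals (SD, n = 5 each). The difference was -0.33 on the log2 scale (95% interval -0.60 to -0.06, FDR = 0.314, edgeR). For mir-29a-3p the means were 507 ± 50.6 and 404 ± 76.4 CPM (SD, n = 5 each), or on the log2 scale a difference of -0.34 (-0.60 to -0.07, FDR = 0.289, edgeR). Mir-21a-3p stood at 605 ± 22.9 and 511 ± 141 CPM (SD, n = 5 each), or on the log2 scale a difference of -0.26 (-0.58 to 0.05, FDR = 0.572, edgeR), and -0.14 without AGAT-/- mouse 7. Among all 562 miRNAs tested, 12 (2.14%) passed the FDR, and 60 (10.7%) had an unadjusted p below 0.05, as had 2 of the 5 members, mir-21a-5p and mir-29a-3p. With DESeq2 no member passed the FDR either. Mir-29a-3p passed the FDR when AGAT-/- mouse 7 was left out (log2 fold change -0.46, FDR = 0.0429, edgeR), and over its 19 alternatives the FDR ranged from 0.0429 to 0.581. Mir-29b-1-5p differed by 0.05 and mir-29b-2-5p by -0.64, with intervals from -0.94 to 1.04 and from -2.10 to 0.82. Without AGAT-/- mouse 7 the latter was -1.18, and without wt mouse 1 it was -0.10. In bulk tissue, fewer cells of a type and less RNA per cell cannot be told apart.

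Supplementation with homoarginine was compared next, AGAT-/-hArg against AGAT-/- mice, which share no lane. Mir-29a-3p averaged 490 ± 59.9 CPM in AGAT-/-hArg mice (SD, n = 5), a log2 fold change of 0.28 against AGAT-/- mice (0.00 to 0.55, FDR = 0.651, edgeR). Both arms of mir-21a differed by less than the spread between mice, with 0.01 for mir-21a-3p (-0.30 to 0.33) and -0.10 for mir-21a-5p (-0.38 to 0.19). Mir-29b-1-5p and mir-29b-2-5p differed by 0.27 and 0.39, with intervals that include 0. No member passed the FDR with edgeR or DESeq2, where 4 of 580 miRNAs (0.69%) did, and 43 (7.41%) had an unadjusted p below 0.05, mir-29a-3p among them.

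Between AGAT-/-hArg and wt mice, mir-21a-5p showed the clearest separation of all members. Its mean was 160 ± 18.4 CPM against 216 ± 10.1 CPM (SD, n = 5 each), or on the log2 scale a difference of -0.43 (-0.70 to -0.16, FDR = 0.0789, edgeR). This did not pass the FDR, although the groups did not overlap, which was so for 22 of 569 miRNAs (3.87%). It passed with DESeq2 (FDR = 0.0381) and with edgeR's filterByExpr (FDR = 0.0374), and its FDR ranged from 0.0374 to 0.277 over 19 alternatives. Mir-21a-3p differed by -0.25 (-0.47 to -0.03, FDR = 0.319, edgeR), with 4 of 5 AGAT-/-hArg mice below all wt mice. Scaled by total counts instead of TMM, it differed by -0.14 (FDR = 0.627, edgeR). Mir-29a-3p differed by -0.05 (-0.29 to 0.19, FDR = 0.919, edgeR), and this sign turned with total counts (0.05). Total counts moved the median of all miRNAs by 0.108 in this comparison. Mir-29b-1-5p differed by 0.32 (-0.50 to 1.14) and mir-29b-2-5p by -0.24 (-1.44 to 0.96). Without wt mouse 1 the latter was 0.31. Of all miRNAs tested, 17 (2.99%) passed the FDR and 71 (12.5%) had an unadjusted p below 0.05, as had both arms of mir-21a. The comparisons share groups of mice, and their values are not independent.

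**Figure D2:**
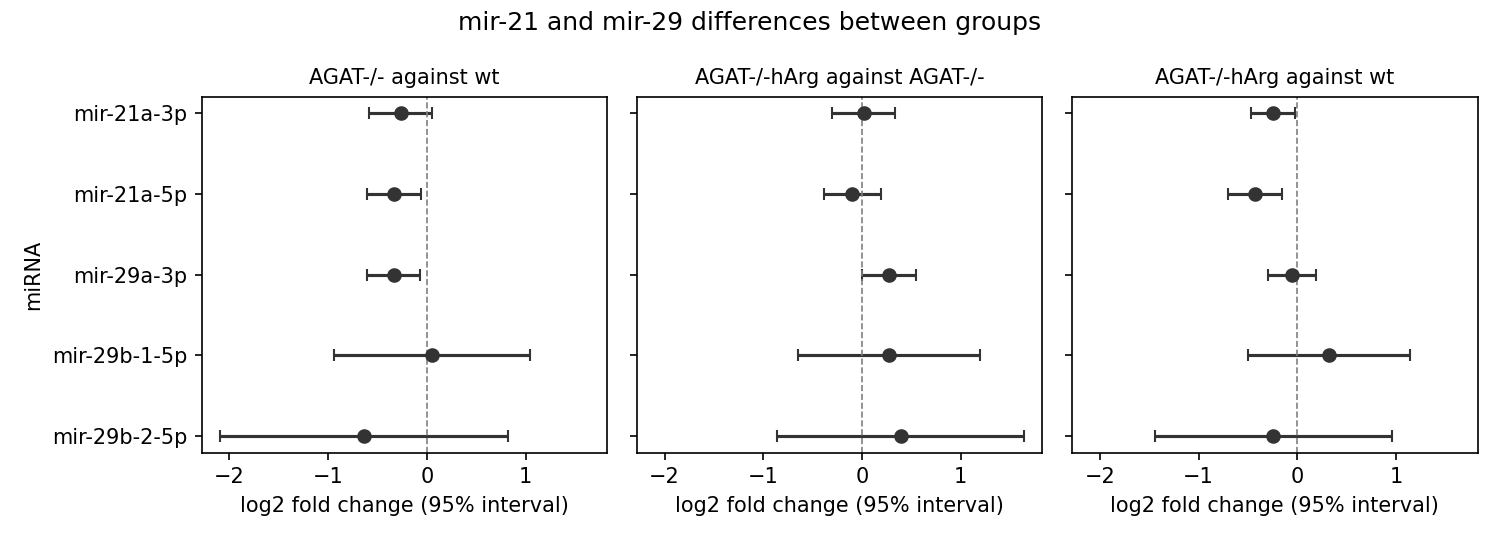
Log2 fold changes (points) with 95% intervals (bars) from edgeR for the 5 members tested, in the 3 comparisons of 5 mice each. Intervals of the mir-29b arms are widest, and mir-21a-5p lies at -0.43 in AGAT-/-hArg against wt mice.

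**Figure D3:**
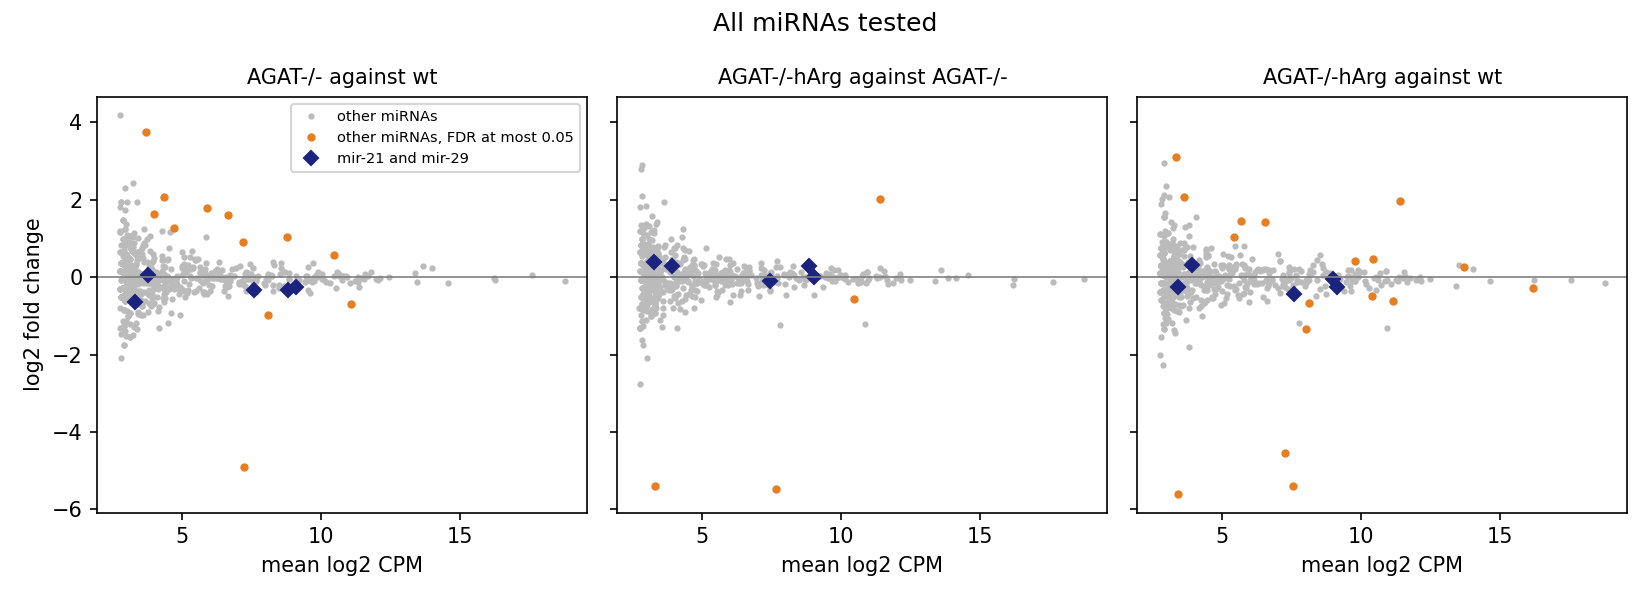
Log2 fold change against mean log2 CPM for every miRNA tested, with mir-21 and mir-29 as diamonds and other miRNAs with an FDR of at most 0.05 in orange. None of the members passed the FDR, and they were not compared with miRNAs of like level. Among miRNAs with at least 50 reads per library on average, the median absolute log2 fold change was 0.106 in AGAT-/- against wt mice. It was 0.09 in AGAT-/-hArg against AGAT-/- and 0.144 in AGAT-/-hArg against wt mice.

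The spread between mice was compared after the values were known and is given as a description. The SD of log2 CPM of mir-21a-3p was 0.05 in wt, 0.44 in AGAT-/- and 0.19 in AGAT-/-hArg mice. For mir-21a-5p it was 0.07, 0.23 and 0.16, and for mir-29a-3p 0.14, 0.28 and 0.18. These SDs include counting noise, for which chi-square divided by its degrees of freedom is near 1. That value was 0.83, 1.35 and 1.17 for mir-21a-5p, so its spread was close to counting noise in each group. For mir-21a-3p it was 1.27, 17.4 and 3.70, and for mir-29a-3p 4.11, 8.25 and 3.89. The medians over the 125 miRNAs with at least 50 reads per library on average were 0.18, 0.16 and 0.17. Of these 125, 3 were more variable than mir-21a-3p in AGAT-/- mice and 118 in wt mice, while 34 and 116 were more variable than mir-21a-5p and 19 and 87 than mir-29a-3p. Single mice carried much of the spread. Without AGAT-/- mouse 7 the SD in AGAT-/- mice was 0.26 for mir-21a-3p, with 20 miRNAs more variable, and 0.14 for mir-21a-5p, with 67. For mir-29a-3p it was 0.18 without AGAT-/- mouse 8, with 49 more variable, and 0.21 without mouse 7, with 33. In wt mice it was 0.04 for mir-29a-3p without mouse 1 and 0.04 for mir-21a-5p without mouse 4.

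The 5p arm took 25.3% of mir-21a reads over the 15 libraries, with 2.96 reads of 3p for each read of 5p. This is the reverse of the arm known as the main guide. Among precursors picked after their values were seen, the known guide arm was also lower in mir-125b-2, mir-24-2, mir-133a-1 and mir-208a (listed at 0). In mir-145a it held 16 reads against 79253 on the other arm. It was the higher one in mir-29a, mir-101b, mir-155 and mir-499. These picks give no tally. Of 125 precursors with both arms above 10 reads, 73 had a 5p share below 50%, and 31 had a lower 5p share than mir-21a. Whether the arm names of the deposited counts fit the reads was not tested. With the names of the arms exchanged, 5p would hold 74.7% of mir-21a reads. As named, the share was 26.6, 27.2, 26.9, 24.8 and 25.9% in wt mice 1 to 5. In AGAT-/- mice 6 to 10 it was 29.6, 30.6, 24.6, 21.2 and 24.1%, and in AGAT-/-hArg mice 11 to 15 it was 25.4, 24.4, 25.1, 22.3 and 22.4%. AGAT-/- mice 6 and 7 had the highest shares and mouse 9 the lowest, and the groups overlapped. The log2 ratio of 5p to 3p differed by -0.18 between AGAT-/-hArg and wt mice (two-sided exact permutation test over all splits of the 10 mice, p = 0.0238, adjusted p = 0.0714, n = 5 each), by -0.03 between AGAT-/- and wt mice (exact p = 0.865) and by -0.15 between AGAT-/-hArg and AGAT-/- mice (exact p = 0.341). The last was -0.07 without AGAT-/- mouse 7 and -0.24 without mouse 9. None passed after adjustment over the 3 comparisons, and the smallest p this design allows is 0.00794.

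**Figure D4:**
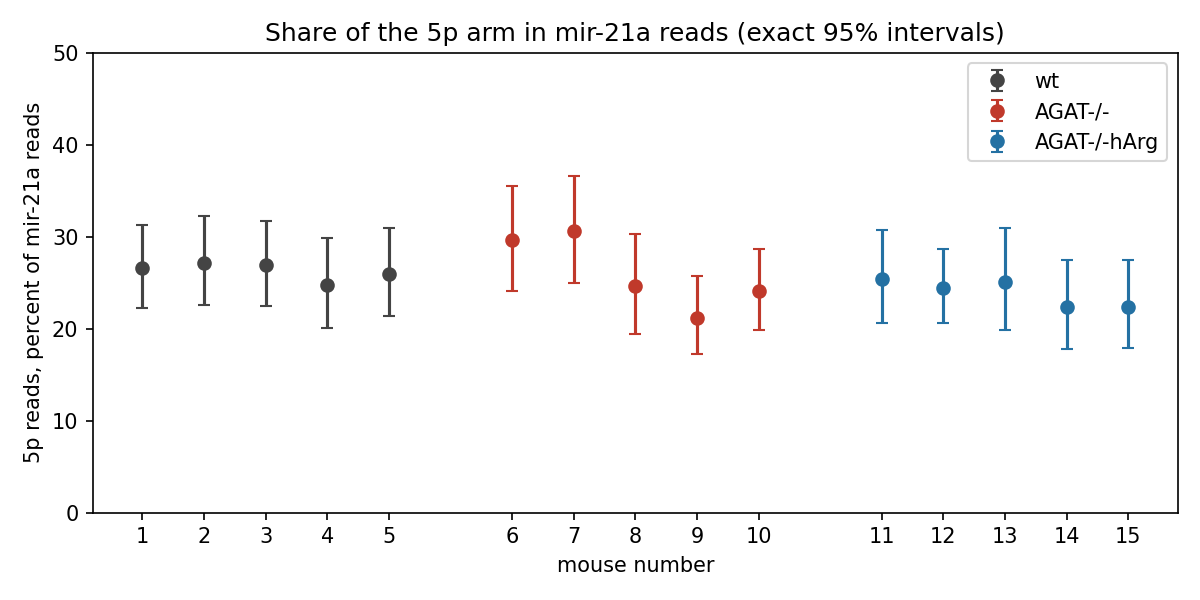
Percent of mir-21a reads on the 5p arm in each mouse (points) with exact Clopper-Pearson 95% intervals (bars), by group. The shares lie between 21.2 and 30.6%, and the intervals of all 15 mice overlap.

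Other miRNAs whose levels most resembled those of mir-21a-3p were mir-16-1-3p, mir-326-3p, mir-101b-3p, mir-199b-5p and mir-300-3p, with Pearson correlations of log2 CPM of 0.70, 0.68, 0.67, 0.61 and 0.61 over the 15 mice. Over the 10 mice of lane 8 they were 0.78, 0.87, 0.73, 0.68 and 0.65. The 5p arm of mir-21a had a correlation of 0.75 with the 3p arm, and mir-29a-3p one of -0.17. For mir-29a-3p the closest were mir-224-5p (0.57), mir-8114-3p (0.50), mir-501-3p (0.49), mir-1981-3p (0.47) and mir-547-3p (0.45). Over lane 8 alone these were 0.65, 0.71, 0.54, 0.67 and 0.32. All were the highest of 122 candidates over the 15 mice and describe these libraries only.

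Other miRNAs tied to cardiac fibrosis were counted in 2 lists, which held both arms of each precursor. Of 20 pro-fibrotic entries, 9 were listed at 0 and 11 were tested, and none passed the FDR with edgeR in AGAT-/- against wt or in AGAT-/-hArg against AGAT-/- mice. In each of these comparisons 1 of the 11 had an unadjusted p below 0.05 (10.7% and 7.41% of all miRNAs), and with DESeq2 mir-125b-2-3p passed in AGAT-/- against wt mice. In AGAT-/-hArg against wt mice 1 of the 11 was higher, mir-125b-2-3p, where 9 of 569 miRNAs (1.58%) were higher. It rose from 12010 ± 1189 to 14440 ± 611 CPM (SD, n = 5 each), with a log2 difference of 0.27 (FDR = 0.0419, edgeR), and stood at 14680 ± 666 CPM in AGAT-/- mice (FDR = 0.0503 against wt, edgeR). The call in AGAT-/-hArg against wt mice was lost in 9 of 18 alternatives, with an FDR between 0.000231 and 0.136. The 5p arm of mir-125b-2, known as its main guide, was listed at 0. Likewise, the most abundant anti-fibrotic entry was mir-24-2-5p, while the 3p arm, the known guide, was listed at 0. Of 32 anti-fibrotic entries, 16 were listed at 0 and 15 were tested, none of which passed the FDR with edgeR or DESeq2 in the 3 comparisons, while 2, 2 and 1 of the 15 had an unadjusted p below 0.05, where 10.7%, 7.41% and 12.5% of all miRNAs had. In AGAT-/- against wt mice, the median log2 fold changes were -0.064 in the pro-fibrotic and -0.034 in the anti-fibrotic list, beside -0.043 over all miRNAs tested. In AGAT-/-hArg against AGAT-/- mice they were -0.01 and -0.07 (0.015 over all), and in AGAT-/-hArg against wt mice -0.09 and 0.065 (0.015 over all).

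Markers of some cell types in LV tissue were examined beside these values, with no list for fibroblasts. Of 14 cardiomyocyte entries, 6 were listed at 0, among them the 3p arms of mir-1a, mir-133a and mir-208a, while mir-499-5p was the most abundant. Their summed level was 1981 ± 116 CPM in wt, 2190 ± 225 in AGAT-/- and 2282 ± 160 CPM in AGAT-/-hArg mice (SD, n = 5 each). Most of the difference of this sum from wt mice came from mir-499-5p, at 752, 976 and 1012 CPM in wt, AGAT-/- and AGAT-/-hArg mice. In AGAT-/- against wt mice 5 of 7 tested cardiomyocyte entries had a log2 fold change below 0, with a median of -0.039. In AGAT-/-hArg mice 5 of 8 were above 0 against AGAT-/- (median 0.078) and 6 of 8 against wt mice (median 0.144). Mir-499-5p rose in AGAT-/-hArg against wt mice (log2 fold change 0.43, FDR = 0.0131, edgeR), a call lost in 2 of 19 alternatives (FDR between 5.39e-05 and 0.0659). In AGAT-/- against wt mice its log2 fold change was 0.36 (FDR = 0.0639, edgeR), and there 1 cardiomyocyte entry, mir-499-5p, passed with DESeq2. The leukocyte list, led by mir-155-5p, stood at 2936, 2901 and 3159 CPM in the 3 groups, and the red blood cell list, led by mir-486a-5p, at 7031, 7224 and 7076 CPM. The smooth muscle and pericyte list, led by mir-145a-3p, stood at 10560, 11450 and 13040 CPM, and the endothelial entries of mir-126a at 18.0, 16.9 and 14.7 CPM. Of 8 leukocyte entries 3 were listed at 0, mir-142a-5p, mir-150-5p and mir-223-3p. Of 8 red blood cell entries 3 were, mir-144-3p, mir-451a-3p and mir-451a-5p. Of 4 smooth muscle and pericyte entries, mir-143-3p was listed at 0 and mir-145a-5p had 16 reads in all. The sums rest on the arms with reads, so they give no level of a cell type. No entry of these 4 lists passed the FDR with edgeR or DESeq2. Named after their values were seen, 3 entries had an unadjusted p below 0.05, as had 7.41% of all miRNAs in AGAT-/-hArg against AGAT-/- mice and 12.5% in AGAT-/-hArg against wt mice. The leukocyte miRNA mir-150-3p stood at 72.3, 71.2 and 44.8 CPM in wt, AGAT-/- and AGAT-/-hArg mice, opposite to the sum of its list (log2 fold change -0.63 against AGAT-/- and -0.64 against wt mice). The red blood cell entry mir-486b-5p had 17 reads in all and was at 0.438, 1.47 and 5.42 CPM, also in both comparisons. Mir-145a-3p had such a p against wt mice alone (log2 fold change 0.31). Mir-122, a liver miRNA, had 5 reads in all on its 3p arm and was listed at 0 on its 5p arm. The part of cell composition in the values of mir-21 and mir-29 was not tested.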

How the data were processed

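MiRNA libraries of 15 LV samples were analysed. The authors mapped reads to murine miRBase entries with the CLC Genomics Workbench and deposited counts of reads per mature miRNA, without normalization. The miRBase release is not given in the sources used here. Samples were grouped by their labels, and all 15 columns were used.

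Groups of 5 mice were compared by the quasi-likelihood test of edgeR 4.0.16 in R 4.3.3 after TMM normalization. MiRNAs were tested when their summed reads in the 10 libraries exceeded 10, and the Benjamini-Hochberg FDR had to be 0.05 or lower. Library sizes were all reads of the table. CPM used TMM over the 15 libraries, with a prior count of 1 for log2 CPM. The fits were tested on simulated data. The arm ratio used a pseudocount of 0.5 and an exact permutation test. All 30 pairs of libraries within groups differed by more than counting noise (chi-square divided by its degrees of freedom, 2.54 to 16.8).

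Alternatives were DESeq2 1.42.0, edgeR with total counts or with the size factors of DESeq2, no filter, filterByExpr, all 15 libraries in 1 fit, the 3 most abundant miRNAs left out, entries summed whose names differ only by the precursor number, a pseudocount of 1, and each mouse left out. Library sizes taken from the tested miRNAs alone were added after results were seen: this setting was first tried because it brought an FDR outside the mir-21 and mir-29 entries nearer to an earlier analysis of these data, and it was kept as an alternative only. The comparison of spread between groups, with each mouse left out in turn, was also added after the values were seen.

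Named miRNAs were all members, list entries that passed the FDR or were most abundant, and the 5 closest in correlation with at least 50 reads per library. Members and lists were chosen with earlier results of these data known. Locations came from RefSeq and GENCODE M21, both on GRCm38, the build in the submitters' processing notes. Python 3.11.15 with scipy 1.17.1 was used.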

Additional observations from a re-analysis of the deposited data

Results flagged for a closer look

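Wt mouse 1 lay far from the other wt mice for mir-29a-3p, at 596 CPM, with a gap to the nearest of them that took 0.788 of the group's whole range. It was the 1 such value in 18 groups tested, and chance gives about 1 in 20 groups. Without this mouse, the log2 fold change of mir-29a-3p in AGAT-/-hArg against wt mice was 0.03 in place of -0.05, neither past the FDR.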

How the results depend on the processing

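Of 129 log2 fold changes of the members under other settings, 120 kept their direction and their side of the FDR, 2 passed it and 5 turned sign. The other 2, both mir-29b entries in AGAT-/-hArg against wt mice, kept their direction and had no FDR from DESeq2. The calls gained were mir-21a-5p in AGAT-/-hArg against wt mice with DESeq2 (-0.42) and filterByExpr (-0.41). With mir-29b-1-5p and mir-29b-2-5p summed, although their sequences differ, the sum was at -0.20 in AGAT-/- against wt and 0.12 in AGAT-/-hArg against wt mice, each opposite in sign to 1 of them. In the same fit, with all such entries summed, mir-21a-3p was at -0.0018 in AGAT-/-hArg against AGAT-/- mice. Without the 3 most abundant miRNAs, it was at -0.0058, and with total counts mir-29a-3p was at 0.0539 in AGAT-/-hArg against wt mice. Taking library sizes from the tested miRNAs, an alternative chosen after seeing the data, changed no call of a member or count of called miRNAs. Without a filter, 8 miRNAs passed in AGAT-/-hArg against AGAT-/- and 28 in AGAT-/-hArg against wt mice. The causes were not tested.

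Leaving out each mouse in turn, 138 of 150 log2 fold changes of the members kept direction and side of the FDR, 1 passed it (mir-29a-3p without AGAT-/- mouse 7) and 11 turned sign. In AGAT-/- against wt mice mir-21a-3p then ranged from -0.32 to -0.14, mir-29b-1-5p from -0.32 to 0.34 and mir-29b-2-5p from -1.18 to -0.10. In AGAT-/-hArg against AGAT-/- mice mir-21a-3p ranged from -0.12 to 0.10, mir-21a-5p from -0.18 to -0.06, mir-29b-1-5p from -0.001 to 0.67 and mir-29b-2-5p from 0.06 to 0.94. In AGAT-/-hArg against wt mice mir-29a-3p ranged from -0.10 to 0.0314, mir-29b-1-5p from 0.11 to 0.45 and mir-29b-2-5p from -0.55 to 0.31. The difference in the mir-21a arm ratio in AGAT-/- against wt mice ranged from -0.11 to 0.0634, and in AGAT-/-hArg against AGAT-/- mice from -0.24 to -0.07. In AGAT-/-hArg against wt mice between 10 and 20 miRNAs passed the FDR, with 10 without AGAT-/-hArg mouse 15 and 11 without wt mouse 5. Depth limits both mir-29b arms, at 70 and 39 reads in all. No paired analysis was made, because the litter of each mouse is not given in the sources used here.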
